A study of Mus musculus with 10 samples.

Results

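Matricellular proteins are secreted proteins that sit in the extracellular matrix without forming its load-bearing fibres, and that bind integrins, growth factors and collagens to adjust how cells attach and respond. In the adult heart several of them are held at low levels and are known to appear after injury and in pressure overload. Fibroblasts, macrophages, smooth muscle cells and stressed cardiomyocytes can make them there. The 10 genes described here were taken by symbol from the 23303 gene entries of the deposited table: Postn (periostin), Thbs1, Thbs2 and Thbs4 (thrombospondins), Tnc (tenascin C), Spp1 (osteopontin), Sparc (osteonectin), Ctgf and Cyr61 (the CCN proteins now named Ccn2 and Ccn1) and Svep1 (polydom). All 10 symbols were present, each as a single entry of its own.

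The study measured left ventricle RNA of 10 male mice of the inbred strain 129X1/SvJ. The labels name the surgery as CKD (chronic kidney disease) for 5 mice and Sham for 5, and give neither age nor time after surgery. The labels list 10 separate samples, taken here as 1 mouse each; p-values measure the spread between these samples. Values are FPKM, which scale the fragments of a gene by transcript length and by sequencing depth. CKD was compared with Sham with limma on log2(FPKM + 0.5) over 11651 genes with a mean of at least 1 FPKM; tests were two-sided, p was adjusted across those genes by the Benjamini-Hochberg method, and the threshold was 0.05.

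Of the 11651 genes tested, 5.29% passed in either direction, 3.17% higher and 2.12% lower in CKD, and the median log2 change was -0.0035. FPKM summed to 570509 to 605007 per library, and the files give no read counts. On principal component 2, CKD 1 (19.2) and Sham 1 (22.1) lay away from the remaining 8 libraries (-14.3 to 1.30). Calls of the 10 genes and counts of the lists that changed without these libraries are given beside each. Of 13 cardiomyocyte markers tested, 0 passed in either direction (median log2 -0.02); 1 was higher and 1 lower over the 8 other libraries, and 1 was higher without Sham 5. Myl2, a light chain of ventricular myosin, had means of 20611 ± 1801 FPKM in Sham mice and 20242 ± 1868 in CKD mice (SD, n = 5 per group). Myh6 and Atp2a2 were listed at 0 in all 10 libraries, although other cardiomyocyte markers such as Myl2 were abundant. The reason was not tested, and a listed 0 is not read here as absence of a transcript.

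RefSeq promoter windows of GRCm38.p6 were found for 8 of the 10 genes. The 250 bases before the annotated start are printed 5′ to 3′ on the gene's strand for Postn, the member with the largest rise among those tested, Thbs2, the member that fell, Svep1, the member with the smallest spread between mice, and Cyr61, whose level followed immediate early genes. The Postn window belongs to 1 of 2 starts in the RefSeq table and lies inside the gene's annotated span, downstream of its first base. Capitals mark matches on either strand to any of 5 motifs. They are the TEAD core GGAATG, the SMAD element CAGAC, the AP-1 site TGANTCA, the TATA box TATAAA, and the CArG box.
Postn (chr3:54360857-54361106, plus strand): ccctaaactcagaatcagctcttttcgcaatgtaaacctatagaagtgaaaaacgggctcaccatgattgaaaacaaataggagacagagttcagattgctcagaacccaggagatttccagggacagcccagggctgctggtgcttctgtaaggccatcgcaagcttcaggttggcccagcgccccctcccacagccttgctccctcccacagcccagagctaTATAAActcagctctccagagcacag
Thbs2 (chr17:14694263-14694512, minus strand): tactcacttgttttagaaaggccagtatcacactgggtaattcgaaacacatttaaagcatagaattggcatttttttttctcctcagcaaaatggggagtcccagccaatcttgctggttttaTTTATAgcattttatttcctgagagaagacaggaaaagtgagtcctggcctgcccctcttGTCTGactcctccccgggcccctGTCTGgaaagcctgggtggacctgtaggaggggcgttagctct
Svep1 (chr4:58206597-58206846, minus strand): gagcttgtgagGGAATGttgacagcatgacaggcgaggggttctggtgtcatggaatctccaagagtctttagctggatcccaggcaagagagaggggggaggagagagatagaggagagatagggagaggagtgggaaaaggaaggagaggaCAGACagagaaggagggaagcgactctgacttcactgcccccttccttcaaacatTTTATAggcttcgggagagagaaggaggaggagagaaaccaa
Cyr61 (chr3:145649986-145650235, minus strand): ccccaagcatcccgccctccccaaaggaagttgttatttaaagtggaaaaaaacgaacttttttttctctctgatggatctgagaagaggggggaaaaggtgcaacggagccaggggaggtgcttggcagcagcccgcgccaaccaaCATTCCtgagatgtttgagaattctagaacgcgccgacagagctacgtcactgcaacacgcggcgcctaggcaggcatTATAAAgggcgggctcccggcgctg
The TATA box letters end 20 bases before the annotated start of Postn and 19 bases before that of Cyr61. On the opposite strand they end 36 bases before that of Svep1 and 120 before that of Thbs2. Of all 32851 windows 12.4% hold them, counted at any place and on either strand. The TEAD core occurs once in Cyr61 and once in Svep1 and is in 12.6% of windows. CAGAC is in 42.2% of windows, TGANTCA in 6.75% and the CArG box in 1.47%; the last 2 have no match in these 4 windows, which speaks only of these letters and these bases. Thbs1 and Ctgf are named only.

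Of the 8 members that were tested, 3 rose in CKD ventricles (Postn, Sparc and Svep1), Thbs2 fell, and Thbs1, Thbs4, Ctgf and Cyr61 did not pass. Among all 11651 tested genes 5.29% passed, 3.17% higher and 2.12% lower in CKD. The members were chosen with earlier results of these data known. Tnc and Spp1 had means of 0.449 and 0.509 FPKM, under the minimum, and were tested in a fit without it, where both were higher in CKD. The 8 tested members had a median log2 change of 0.02. The CKD and Sham values did not overlap for 6 of the 10 genes, 5 of them higher in CKD, and for 4 of the 8 tested; 7.28% of all tested genes did not overlap (4.1% higher and 3.18% lower in CKD), and 5.68% of the 17709 entries above 0 in some library.

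**Figure D1:**
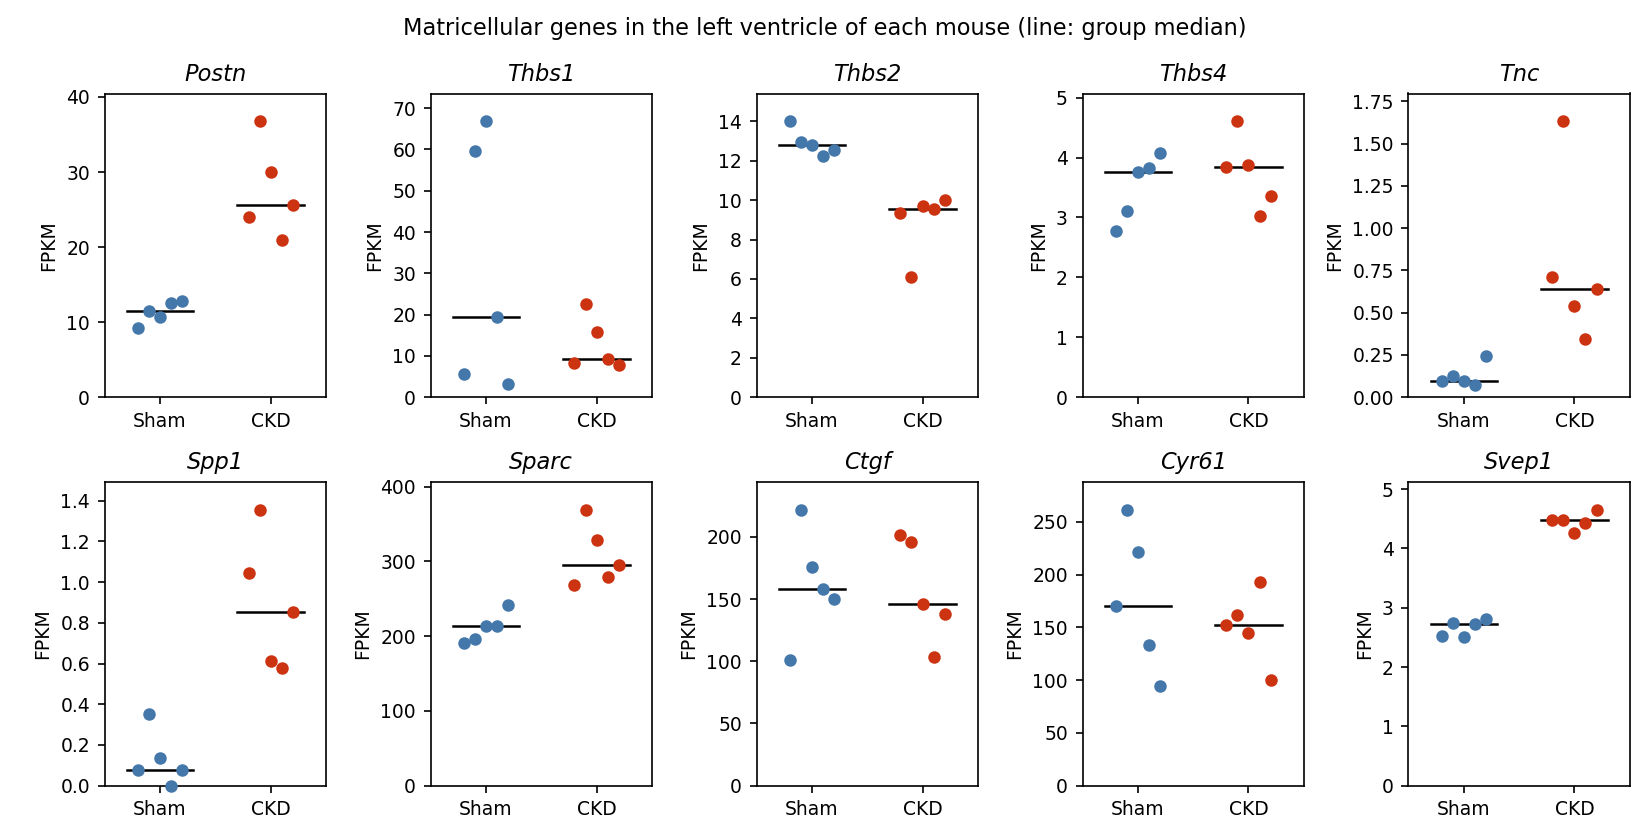
FPKM of the 10 genes in each mouse (points, 5 Sham in blue and 5 CKD in red; line, group median), with every vertical axis starting at 0. The CKD points lie wholly above the Sham points for Postn, Tnc, Spp1, Sparc and Svep1 and wholly below for Thbs2, and the Sham points of Thbs1 run from 3.09 to 66.9 FPKM.

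In the order of their mean level per length, the Sham ventricle had Sparc first at 211 ± 19.7 FPKM, then Cyr61 at 176 ± 66.9 and Ctgf at 161 ± 43.8 (SD, n = 5 each). Cyr61 and Ctgf overlapped each other and Sparc in single mice. Thbs1 at 30.9 ± 30.2, Thbs2 at 12.9 ± 0.674 and Postn at 11.4 ± 1.48 FPKM came next, and the range of Thbs1 covered both of the others. Thbs4 was at 3.51 ± 0.549 and Svep1 at 2.66 ± 0.133 FPKM. Tnc and Spp1 were the lowest. In CKD Postn, at 27.5 ± 6.14 FPKM, was the fourth in the order, where it had been the sixth in Sham.

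Postn encodes periostin, a fasciclin-domain protein that binds collagen and integrins and is a known marker of activated cardiac fibroblasts. It lies on chromosome 3 from 54359267 to 54391041 (GRCm38). The 5 Sham mice had 9.24, 11.5, 10.7, 12.6 and 12.9 FPKM, and the 5 CKD mice 24.1, 36.8, 30.0, 21.0 and 25.6. The lowest CKD mouse was well above the highest Sham mouse, and CKD 2 was the highest of all. The rise was 2.33-fold (95% interval 1.89 to 2.87; limma adjusted p = 0.000813), the 20th smallest p of all tested genes. Without both CKD 1 and Sham 1 the log2 change was 1.19, against 1.22 with all mice.

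Svep1, a very large adhesion protein of sushi, EGF and pentraxin domains that binds integrin alpha 9 beta 1, had the most even levels. It lies on chromosome 4 from 58042796 to 58206596, and an antisense transcript, Gm26889, overlaps it. The Sham mice had 2.53, 2.74, 2.51, 2.72 and 2.80 FPKM and the CKD mice 4.48, 4.48, 4.27, 4.43 and 4.65. All 5 CKD values fell within a narrow band above the Sham values: the SD of log2 values was 0.04 in CKD, lower than that of all but 3.07% of tested genes, and 0.06 in Sham. The rise was 1.57-fold (95% interval 1.42 to 1.73; log2 0.65, SE 0.06, limma adjusted p = 0.000698), the 6th smallest p of all tested genes. The sources used here do not say whether counting used strand, so reads of Svep1 and of its antisense partner cannot be told apart.

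Sparc encodes a collagen-binding protein that takes part in the assembly of fibrillar collagen, and it was the most abundant member. Its gene is on chromosome 11 from 55394159 to 55420080. Sham mice had 191, 196, 213, 213 and 241 FPKM and CKD mice 268, 369, 328, 279 and 295. The groups did not overlap, but Sham 5 and CKD 1 were close. The rise was 1.45-fold (95% interval 1.27 to 1.66; limma adjusted p = 0.00607). In absolute terms this was the largest gain of any member, from 211 to 308 FPKM on average.

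Tnc encodes tenascin C, a hexameric glycoprotein that is scarce in the healthy adult myocardium. Sham mice had 0.0959, 0.124, 0.0960, 0.0731 and 0.245 FPKM, and CKD mice 0.709, 1.63, 0.539, 0.341 and 0.639. Every CKD mouse was above every Sham mouse, CKD 2 was the highest of all, and CKD 4 was nearest to Sham. In the fit without a minimum the log2 change was 0.95 (SE 0.21, limma adjusted p = 0.0326), where 3.24% of 17709 genes passed. Leaving out a single library ended the call for 7 of the 10 (CKD 1, CKD 3, CKD 5 and Sham 1 to Sham 4; limma adjusted p up to 0.0787), as did dropping CKD 1 together with Sham 1 (0.101), with log2 changes of 0.92 to 1.01 in those fits. Tnc is on chromosome 4 from 63959785 to 64047015 and overlaps a transcript on the other strand, 8030451A03Rik.

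Spp1 encodes osteopontin, a phosphorylated integrin and CD44 ligand made by macrophages and other cells. The Sham mice were listed at 0.0762, 0.352, 0.137, 0 and 0.0777 FPKM, and the CKD mice at 1.05, 1.36, 0.615, 0.576 and 0.853. The lowest CKD mouse was above the highest Sham mouse, Sham 2. In the fit without a minimum the log2 change on the log2(FPKM + 0.5) scale was 1.14 (SE 0.17, limma adjusted p = 0.00764). That scale compresses genes this close to the pseudocount: with a pseudocount of 0.1 the log2 changes of Spp1 and Tnc were 2.23 and 1.83, and with 1 they were 0.73 and 0.62, where Tnc did not pass (adjusted p = 0.0507). Spp1 lies on chromosome 5 from 104435111 to 104441053, where a transcript on the same strand, Gm42793, overlaps it. The number of fragments behind values this low is unknown.

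The thrombospondins are calcium-binding glycoproteins; Thbs1 and Thbs2 form trimers, inhibit the growth of blood vessels and bind the receptors CD36 and CD47, and Thbs4 forms pentamers and is found in muscle and tendon. Thbs2 (chromosome 17, 14665500 to 14694262) fell. Its Sham values were 14.01, 12.97, 12.8, 12.2 and 12.5 FPKM, and its CKD values 9.36, 6.09, 9.72, 9.55 and 10.0. The groups did not overlap, the Sham mice were tightly grouped, and CKD 2 lay well under the other 4 CKD mice. The log2 change was -0.52 (SE 0.12, limma adjusted p = 0.0233), and -0.40 without CKD 2 (adjusted p = 0.00729). The call, though not the size of the fall, depended on single controls. Dropping Sham 1, Sham 2 or Sham 3 raised the limma adjusted p to 0.0526, 0.0524 and 0.0557, with log2 changes of -0.50, -0.52 and -0.53. Dropping CKD 1 together with Sham 1 raised it to 0.0631, with a log2 change of -0.52.

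Thbs4 (chromosome 13, 92751586 to 92794818) had Sham values of 2.77, 3.10, 3.76, 3.82 and 4.08 FPKM and CKD values of 3.84, 4.61, 3.87, 3.03 and 3.35. The ranges overlapped over most of their length. The log2 difference was 0.08 (95% interval -0.18 to 0.34; limma adjusted p = 0.777), and -6.41e-04 over the 8 mice other than CKD 1 and Sham 1.

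Thbs1 (chromosome 2, 118111876 to 118127133) was the member that varied most between mice. Sham mice had 5.67, 59.6, 66.9, 19.4 and 3.09 FPKM, and CKD mice 8.34, 22.7, 15.7, 9.14 and 7.67. Sham 2 and Sham 3 were far above every other mouse, Sham 5 was the lowest, and all CKD mice lay inside the Sham range. The SD of log2 values was 1.90 in Sham, above that of 99.8% of tested genes, and 0.65 in CKD. The log2 difference of -0.55 had a 95% interval from -2.17 to 1.06 (limma adjusted p = 0.747), which runs from 0.223 to 2.08 times the Sham level.

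The log2 change of Thbs2 was lower than that of Thbs4 by 0.61 (SE 0.24, exact two-sided permutation p = 0.0159 over the 10 mice, p = 0.037 adjusted over 14 such comparisons). Thbs1 changed by 0.64 less than Thbs4 (SE 0.89, exact permutation p = 0.468, adjusted p = 0.546), and its difference from Thbs2 was -0.03 (SE 0.95, exact permutation p = 1). The spread of Thbs1 among Sham mice leaves these last differences wide. Leaving out 1 library gave differences between Thbs2 and Thbs4 of -0.70 to -0.41, and the call was lost in all of these fits but those without CKD 4 or Sham 5 (adjusted p up to 0.0741; smallest possible permutation p with 9 mice 0.0159).

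Ctgf and Cyr61 are CCN proteins, cysteine-rich ligands of integrins and heparan sulfate that are early targets of TGF-beta and YAP signalling and of serum. Ctgf (chromosome 10, 24595442 to 24598683) had Sham values of 101, 222, 176, 158 and 150 FPKM and CKD values of 201, 196, 146, 104 and 138. Its groups overlapped throughout, with Sham 1 and CKD 4 the lowest and Sham 2 the highest. The log2 difference was -0.04 (95% interval -0.50 to 0.43; limma adjusted p = 0.958), and it was -0.29 over the 8 mice other than CKD 1 and Sham 1.

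Cyr61 (chromosome 3, 145646971 to 145649985) had Sham values of 171, 262, 221, 133 and 94.8 FPKM and CKD values of 152, 162, 145, 193 and 100.3. All 5 CKD values were inside the Sham range. The log2 difference was -0.17 (95% interval -0.72 to 0.38; limma adjusted p = 0.778). The Ctgf to Cyr61 ratio differed by 0.13 on the log2 scale (SE 0.35, exact permutation p = 0.690, adjusted p = 0.744). The antisense transcript Gm15270 overlaps Ctgf, and Gm29233 overlaps Thbs1.

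**Figure D2:**
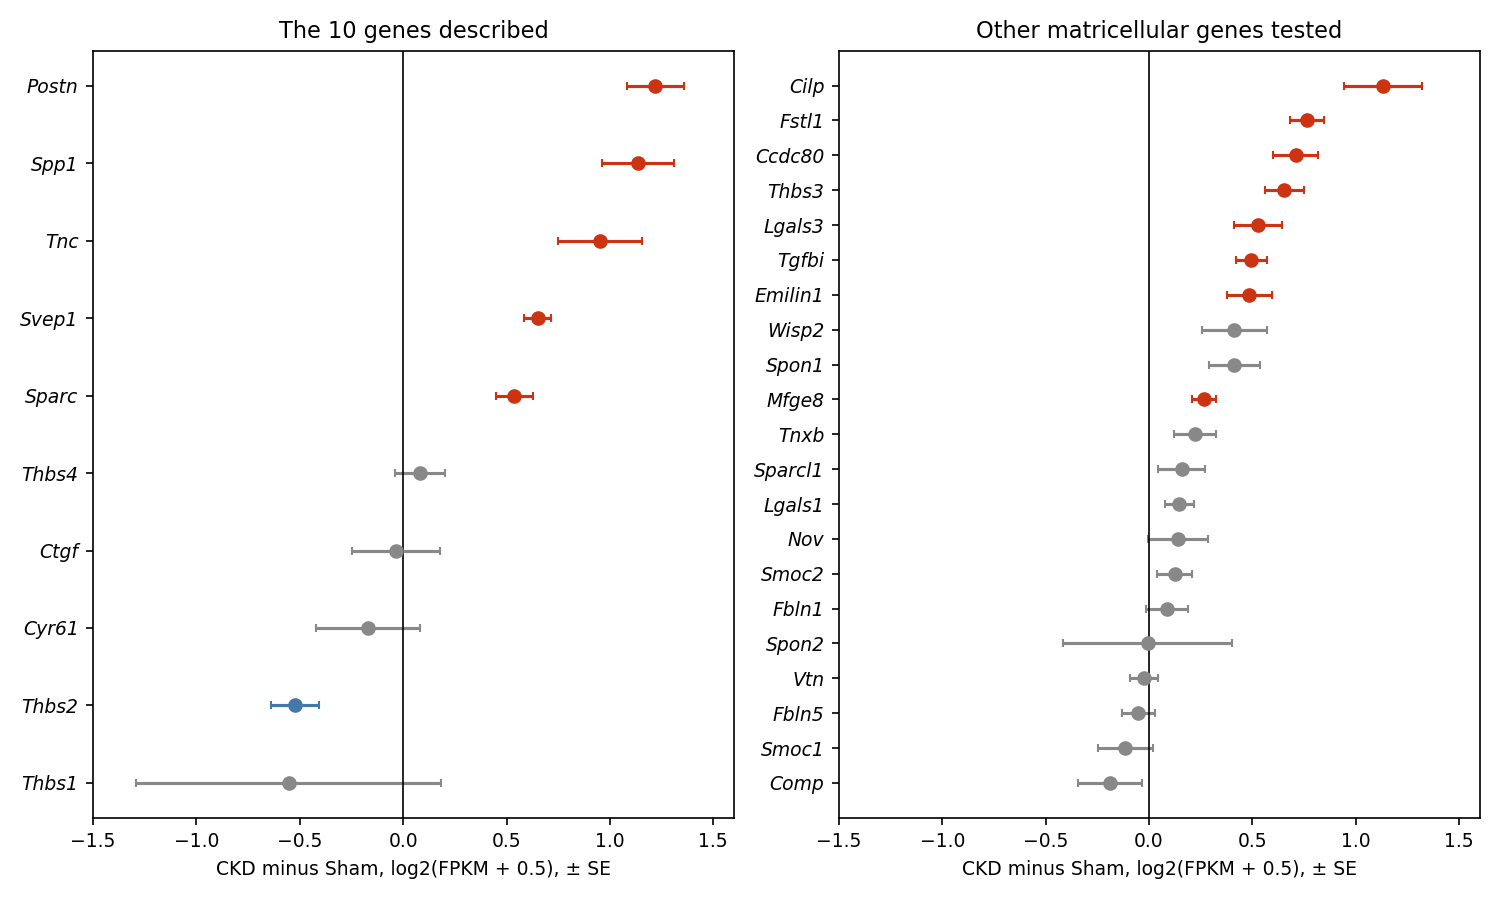
CKD minus Sham difference on the log2(FPKM + 0.5) scale with its SE for the 10 genes (left; Tnc and Spp1 from the fit without a minimum level) and for the 21 other matricellular genes tested (right); red and blue mark limma adjusted p under 0.05 and grey the rest. On the left 5 genes are red and Thbs2 is blue, and on the right 8 are red and none is blue.

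Other genes of the class gave the setting. Of 25 further matricellular genes named, 21 were tested, 8 were higher in CKD and 0 lower (median log2 0.22). The count was 7 without CKD 1 and Sham 1 together, and 5 when CKD 5 or Sham 3 was left out. Of all tested genes 3.17% were higher and 2.12% lower, the shares that stand beside this list and those below. The lists were chosen with earlier results of these data known, so their counts are a description. Fstl1, a secreted SPARC-family glycoprotein, rose from 25.4 ± 1.86 to 43.7 ± 5.41 FPKM (SD, n = 5 each; log2 0.76, limma adjusted p = 0.000813). Thbs3, the other pentameric thrombospondin beside Thbs4 and Comp, rose from 2.78 ± 0.314 to 4.66 ± 0.518 FPKM (log2 0.65, adjusted p = 0.0028). Tgfbi, a fasciclin-domain relative of periostin, rose by 0.50 and Ccdc80 by 0.71 on the log2 scale. Among the family relatives, Sparcl1 (log2 0.16, adjusted p = 0.495), Tnxb (0.22, adjusted p = 0.262) and Comp (-0.19, adjusted p = 0.565) did not pass.

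Receptors and partners were read from lists. Of 24 tested receptors 6 were higher and 0 lower (median log2 0.09; 5 higher without CKD 1 and Sham 1). They were Itga9, a subunit of the tenascin C, osteopontin and Svep1 receptor (11.8 ± 0.745 to 16.1 ± 1.604 FPKM, log2 0.43, adjusted p = 0.00618), the osteopontin receptor Cd44 (log2 0.52), the thrombospondin and CCN receptor Lrp1 (0.44), Stab1, a scavenger receptor that takes up SPARC (0.38), and the leukocyte integrins Itgam (0.52) and Itgb2 (0.57). Itgb1, the common beta subunit, went from 139 ± 6.01 FPKM in Sham to 148 ± 4.22 in CKD (log2 0.09, adjusted p = 0.282). Of the 16 tested matrix partners, 10 were higher and 0 lower (median log2 0.50; 6 higher without both CKD 1 and Sham 1), among them the proteoglycan Bgn (log2 0.81), Col1a2 (0.60) and Col5a2 (0.68), which had the smallest p of the list.

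Among 19 ligands, receptors and early targets of TGF-beta, 3 were higher and 1 lower (median log2 0.16). The higher count was 1 when any single library other than CKD 1, CKD 3 or Sham 2 was left out, and the lower count was 0 without any 1 of CKD 2, CKD 3, CKD 5, Sham 1, Sham 3 or Sham 4; without CKD 1 and Sham 1 together they were 1 and 0. Ltbp2 rose from 0.768 ± 0.159 to 2.48 ± 0.617 FPKM (log2 1.21, adjusted p = 0.00171), Tgfbr2 rose by 0.28 and Tgif1 by 0.30, and Smad3, a signal transducer of the pathway, fell by 0.45 on the log2 scale (adjusted p = 0.0303). Tgfb1 (log2 0.16, adjusted p = 0.391), Tgfb2 (0.32, adjusted p = 0.166) and Tgfb3 (0.21, adjusted p = 0.229) did not pass. Of 18 YAP and TEAD targets other than Ctgf and Cyr61, 4 were higher and 0 lower (median log2 0.09): Ccdc80, Ankrd1 (0.82), Axl (0.27) and Myof (0.34). The count was 2 when any single library other than CKD 4, Sham 2 or Sham 5 was left out, and also without CKD 1 and Sham 1 together.

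In bulk tissue, more cells of a type and more RNA per cell cannot be told apart, so cell type markers are given beside the members. Of 17 fibroblast markers 8 were higher and 0 lower (median log2 0.26, with 6 higher without CKD 1 and Sham 1). The 8 were Col1a1 (log2 0.71), Col1a2 (0.60), Col3a1 (0.94), Lum (0.31), Pi16 (0.74), Mfap5 (1.07), Fbln2 (0.66) and Mfap4 (0.92). Not passing were Pdgfra (log2 0.05), Tcf21 (-0.13), Dcn (0.07), Gsn (0.07), Ddr2 (0.09), Dpep1 (-0.14), Scara5 (-0.19), Dpt (0.26) and Clec3b (0.25). The markers thus did not move as 1. Their summed level was 1566 to 1794 FPKM in CKD and 1395 to 1531 in Sham, and their score, the mean log2 level relative to the Sham mean, was 0.29 to 0.46 in CKD mice and -0.08 to 0.10 in Sham mice. The fibroblast and matrix partner lists share Col1a1, Col1a2, Col3a1, Dcn and Lum. Of 16 macrophage markers 7 were higher and 0 lower (median log2 0.50; 5 higher without CKD 1 and Sham 1; summed level 422 to 610 FPKM in CKD and 293 to 356 in Sham).

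Endothelial markers (15 tested), smooth muscle and pericyte markers (13), mesothelial (5), platelet (3), neutrophil (3), lymphocyte (1) and Schwann and neural markers (1) each had 0 higher and 0 lower. For smooth muscle and pericyte markers 1 was higher without CKD 1, Sham 2, Sham 5 or CKD 1 and Sham 1 together, and 1 was lower without Sham 5. The 7 platelet markers found summed to 31.6 to 41.0 FPKM in CKD and 23.5 to 36.6 in Sham, the 7 mesothelial markers to 5.48 to 16.99 and 5.06 to 14.2, and the 5 neutrophil markers found to 13.9 to 57.2 and 7.08 to 29.6. Tendon and valve markers were low, with Kera listed at 0 in every library; 3 were tested and Lect1 was lower (log2 -0.88).

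When each mouse's log2 level was set against its own fibroblast score, Postn, Svep1, Tnc and Spp1 were higher in CKD and Thbs2 was lower. The score itself was higher in CKD, so most genes fell relative to it: by the same exact permutation test at an unadjusted p of at most 0.0159, 61.9% of the 11651 tested genes were lower and 0.489% higher (62.4% in all), and of the 17709 entries above 0 in some library 61.7% were lower and 0.39% higher (62.1% in all). A downward difference from the score is therefore common to most genes, and this count says nothing of its size. Thbs2 also fell in its own level (log2 -0.52, limma adjusted p = 0.0233). That call was lost without Sham 1, Sham 2 or Sham 3. Postn rose more than the score by 0.85 (SE 0.15, exact two-sided permutation p = 0.00794, the smallest that 10 mice allow, adjusted p = 0.037), and Svep1 by 0.28 (SE 0.04, same p and adjusted p). The score averages markers that rose with markers that did not pass. In its own level Svep1 rose by 0.65, inside the range of the 8 called fibroblast markers (log2 0.31 to 1.07), and Postn rose by 1.22, above it. The difference for Thbs2 was -0.89 (SE 0.15, exact permutation p = 0.00794, adjusted p = 0.037).

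Tnc and Spp1 differed from the score by 0.58 and 0.77 (SE 0.21 and 0.20, exact permutation p = 0.0159 each, adjusted p = 0.037), and by 0.25 and 0.37 with a pseudocount of 1, where neither passed (adjusted p = 0.127 and 0.0741). Leaving out 1 library ended each of the 5 calls in 8 of 10 fits, and in 9 of 10 for Spp1 (adjusted p up to 0.0741). Each was at 0.1 without CKD 1 and Sham 1. The smallest permutation p is 0.0159 with 9 mice and 0.0286 with 8. With fewer mice a call can thus be lost without a smaller difference. For Spp1 the adjusted p was 0.0556 with libraries scaled to the same summed FPKM. Sparc changed by 0.17 more than the score (SE 0.09, exact permutation p = 0.135, adjusted p = 0.222), a difference within the spread between mice. Thbs4 was at -0.29 (SE 0.11, exact permutation p = 0.0556, adjusted p = 0.111). The part that macrophages or other cells have in these differences was not tested.

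**Figure D3:**
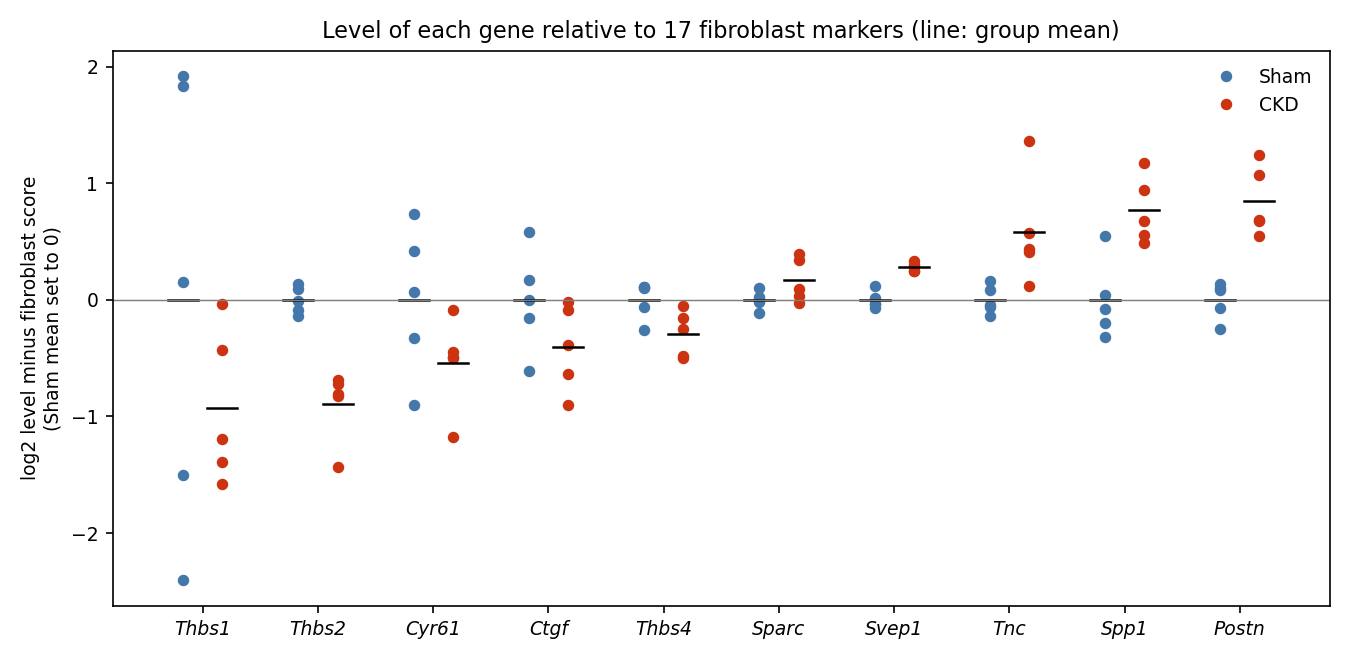
Log2 level of each gene minus the mouse's fibroblast score (mean of 17 markers), with the Sham mean of each gene set to 0 (points, mice; line, group mean). Postn and Svep1 have all CKD mice above all Sham mice and Thbs2 has all below, at 0.85, 0.28 and -0.89 on average.

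Mice of the same group differed from each other in a patterned way. With the group means removed, the log2 levels of Postn and Sparc rose and fell together over the 10 mice (Pearson r = 0.88, Spearman rho = 0.87), as did Postn and Thbs4 (r = 0.84, rho = 0.82) and Thbs4 and Sparc (r = 0.80, rho = 0.83). Without the 2 mice farthest from the median of the first gene named, these r were 0.81, 0.70 and 0.77. Thbs4 thus kept to Postn and Sparc from mouse to mouse although its group means differed by less than their spread. All of these points share their libraries, and the 45 pairs are a description with no test.

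Thbs2 ran the other way, with r = -0.86 to Tnc (rho = -0.58), -0.75 to Postn (rho = -0.52) and -0.71 to Sparc (rho = -0.49). Without the 2 mice farthest from the median of Thbs2, Postn and Thbs2 in turn these were -0.53, -0.49 and -0.45. To Thbs4 the r of Thbs2 was -0.69 (rho = -0.73), and -0.61 without the 2 mice farthest from the median of Thbs2. CKD 2, the mouse with the lowest Thbs2, was also the mouse with the highest Postn, Tnc, Spp1, Sparc and Thbs4. The link of Postn to Tnc (r = 0.76) was 0.13 without the 2 mice farthest from the median of Postn, so it rests on those mice. That of Tnc to Sparc (r = 0.69, rho = 0.28) was 0.27 without the 2 mice farthest from the median of Tnc.

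**Figure D4:**
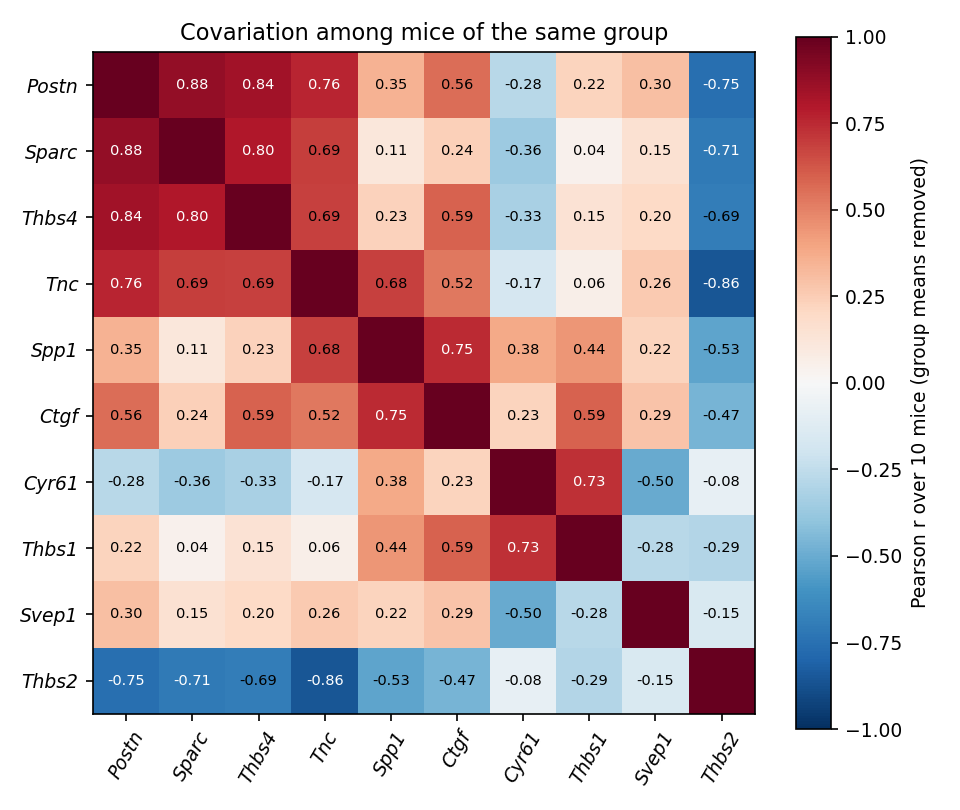
Pearson r between the log2 levels of each pair of genes over the 10 mice after the group means were removed (colour and number; red positive, blue negative). Postn, Sparc, Thbs4 and Tnc form a block of positive values from 0.69 to 0.88, of which Tnc with Postn and with Sparc are 0.13 and 0.27 without the 2 farthest mice, and Thbs2 is negative to each of them.

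The genes with the most similar mouse-to-mouse pattern, of 10781 candidates (10782 for Tnc and Spp1), mostly differed from member to member. The exception was Zfp747, which was among the closest for both Postn and Thbs4. For Thbs4 they were Zfp747 (r = 0.95, rho = 0.98), Eda (0.94) and Fads1 (0.93). For Postn they were Fes, a myeloid and endothelial tyrosine kinase (r = 0.97, rho = 0.99), Capg, an actin-capping protein (r = 0.96), and Zfp747 (r = 0.95). For Sparc they were Pmm2 (r = 0.98), Rapgef1 (0.96) and Fam171a2 (0.95), and for Svep1 Nup85 (0.97), Slc9a3r2 (0.93) and Fmnl1 (0.91). For Spp1 the closest was Mif, macrophage migration inhibitory factor (r = 0.96), and for Ctgf Hnrnpab (r = 0.95). For Tnc they were Sh3tc2 (r = 0.96, rho = 0.68), Fstl1 (0.92, rho = 0.52) and Tubb5 (0.91, rho = 0.92). For Thbs2 they were Ivd (r = 0.93), Fmo2 (0.91) and Abcc5 (0.89). Without the 2 mice farthest from the median of Tnc, its r were 0.74, 0.68 and 0.84. Without the 2 farthest from the median of Thbs2, its r were 0.64, 0.71 and 0.75. These were picked as the highest of all candidates and carry no test.

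For Cyr61 the closest were Jun (r = 0.98, rho = 1), Ier2 (0.95) and Zfp36 (0.95), all immediate early genes, which cells transcribe within minutes of a stimulus. For Thbs1 they were Errfi1 (r = 0.98, rho = 0.98), Ifrd1 (0.98) and Ptgs2 (0.97), which are also induced quickly by growth factors and stress. A list of 11 immediate early genes, chosen after these values were seen (Fos, Fosb, Jun, Junb, Egr1, Ier2, Zfp36, Atf3, Dusp1, Btg2 and Nr4a1), had 0 members higher and 0 lower in CKD. Each of the 11 was highest in Sham 2 or Sham 3 and lowest in Sham 5.

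Their summed level was 1233, 2252, 2113, 1083 and 460 FPKM in Sham 1 to Sham 5, and 1102, 1254, 1100.3, 1414 and 863 in CKD 1 to CKD 5. Sham 2, Sham 3 and Sham 5 were thus at the extremes for these genes and for Thbs1 and Cyr61 alike. The r with the mean of the 11 genes was 0.93 for Cyr61 (rho = 0.96) and 0.86 for Thbs1 (rho = 0.75), and 0.87 and 0.70 without the 2 mice farthest from its median. Jun, Ier2 and Zfp36 are in the list. For Ctgf it was 0.28 (rho = 0.28) and for Postn -0.22 (rho = -0.30). The labels give no time or order of dissection, and the part that the handling of each mouse has in these levels was not tested.

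**Figure D5:**
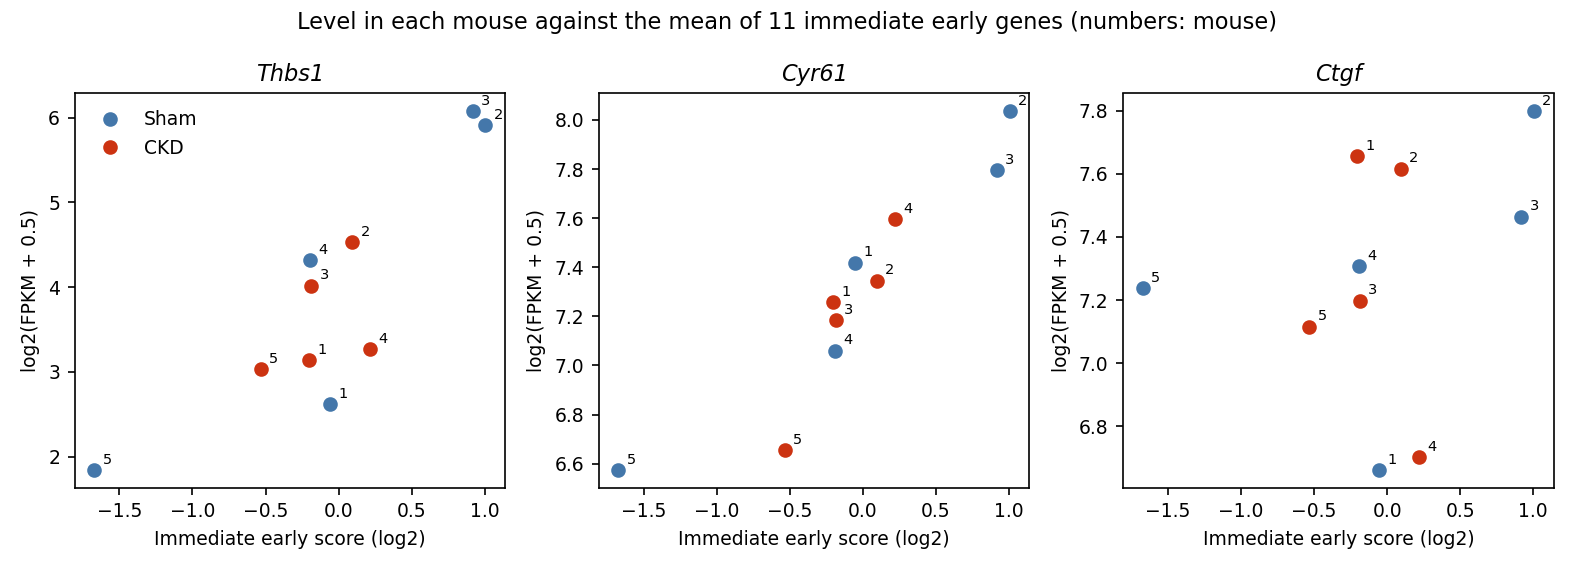
Log2(FPKM + 0.5) of Thbs1, Cyr61 and Ctgf in each mouse (vertical) against the mean log2 level of 11 immediate early genes relative to the Sham mean (horizontal); numbers name the mice within each group. Thbs1 and Cyr61 climb from Sham 5 at the lower left to Sham 2 and Sham 3 at the upper right, with r = 0.86 and 0.93 after group means were removed, and Ctgf shows no such line (r = 0.28).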

How the data were processed

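The authors deposited 1 table of FPKM values, 1 column per mouse. The submitters' processing notes list STAR 2.4.0f1, Cufflinks 2.1.1, Cuffdiff 2.1.1 and the builds mm10 and hg19 without roles. The handling of shared reads and of strand is not stated there. FPKM are not counts, so depth is unknown; the smallest steps among values of at most 0.2 FPKM gave relative depths of 0.848 to 1.15 times that of Sham 2. No 2 libraries were identical. The labels do not pair mice, and numbers only name them.

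Values were analysed as log2(FPKM + 0.5) without further scaling, with limma 3.58.1 in R 4.3.3 (lmFit, eBayes with trend), CKD against Sham, for genes with a mean of at least 1 FPKM; this scale shrinks the fold changes of low genes. For ratios between genes, group labels were permuted exactly and p adjusted over 14 comparisons. The same test against the fibroblast score over all genes, as a background, was added after the data were seen. On simulated data for this comparison (11651 genes), 40% of genes changed 1.25-fold, 66% of those changed 1.5-fold and 96% of those changed 2-fold were recovered. Of 152 calls 1 was false. The noise was drawn independently for each gene and mouse, so differences shared by the genes of a library were not simulated. Alternatives were other pseudocounts (0.1 and 1), filters, scalings, variance models and leaving out libraries; the fits of Tnc and Spp1 under other settings without a filter, and the immediate early list, were added after the data were seen. Named were all members and the genes most like each. From each list up to 4 called genes by smallest p were named, with an abundant, little-changed one where useful. Comp, Sparcl1, Tnxb, the TGF-beta ligands, the last 2 receptors and the fibroblast markers were named after their values were seen. The members and the 16 lists were chosen with earlier results of these data known. Positions are RefSeq's for GRCm38 (mm10), and overlaps are from GENCODE.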

Additional observations from a re-analysis of the deposited data

Results flagged for a closer look

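Among the 20 sets of 5 values (10 genes, 2 groups), 2 held a library far from the other 4, and chance alone gives about 1 in 20. In both it was CKD 2, and the sets share the same 10 libraries. They are thus not independent, and the number found cannot be weighed against chance. Thbs2 in CKD 2 was at 6.09 FPKM, against 9.36 to 10.0 in the other CKD mice. Tnc in CKD 2 was at 1.63 FPKM, against 0.341 to 0.709 in the other CKD mice. Without CKD 2 the log2 change of Thbs2 was -0.40 and that of Tnc 0.75 (limma adjusted p = 0.00729 and 0.0159).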

How the results depend on the processing

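No paired analysis was possible because the labels number no mice across the groups. Postn, Sparc, Svep1 and Spp1 kept their call in every fit run for them, with log2 changes of 1.11 to 1.31, 0.47 to 0.59, 0.63 to 0.67 and 1.03 to 1.253 when 1 library was left out. Leaving out 1 library moved the members called higher from 3 to 3 and those called lower from 0 to 1, the genes called higher from 202 to 385 and lower from 131 to 290 (369 and 247 with all), and the listed genes called higher from 28 to 43 and lower from 1 to 3 (41 and 2 with all). Without a filter 5 members were higher and 1 listed gene was lower; with a minimum of 5 FPKM 0 listed genes were lower; sample weights gave 400 genes lower; without both CKD 1 and Sham 1, 0 members were lower. Directions that turned were those of differences near 0: Thbs4 (-6.41e-04) and Ctgf against Cyr61 (-0.12) without both CKD 1 and Sham 1, Thbs1 against Thbs2 with a pseudocount of 0.1 (4.49e-04), and, without 1 library, Ctgf (-0.19 to 0.10), Ctgf against Cyr61 (-0.036 to 0.37) and Thbs1 against Thbs2 (-0.60 to 0.45); the cause was not tested. Differences from the fibroblast score kept their direction for Postn (0.75 to 0.92), Svep1 (0.26 to 0.31), Tnc (0.39 to 0.70), Spp1 (0.67 to 0.90) and Thbs2 (-0.95 to -0.76), while their adjusted p rose to as much as 0.0741 with 9 mice and 0.1 with 8, where the smallest permutation p are 0.0159 and 0.0286.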
